A study of Mus musculus with 20 samples.

Results

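Ribosome footprints on the collagen α chains were compared between mouse embryonic stem cells (mESCs) of 2 genotypes in 2 culture media. The chains were taken as every gene whose symbol is Col, a type number, the letter a and a chain number, which gave 44 of the 22416 genes counted. Of these, 11 encode fibrillar chains (types I, II, III, V, XI, XXIV and XXVII), 6 encode the type IV chains of basement membranes, and 27 belong to other classes. Wild-type cells (WT) were eIF2α+/+, and knock-in cells (KI) were eIF2αA/A, with alanine at the regulatory phosphorylation site of the translation initiation factor eIF2α. All cells were grown without serum in medium with KnockOut serum replacement and leukemia inhibitory factor (LIF, 1000 U/mL). In the LIF/2i groups the MEK inhibitor PD0325901 and the GSK3 inhibitor CHIR99021 were also present, in the LIF groups they were not, and each condition lasted 6 days. Cycloheximide, which stops elongating ribosomes, was in the washes before lysis in every group. Each of the 4 groups had 3 libraries from lysates digested with micrococcal nuclease (MNase) and 2 from lysates digested with RNase I, 20 libraries in all. The labels name no clone and no source of the replicates, such as separate cultures, so that p-values measure the spread between libraries as labelled, which may be technical.

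Collagen chains assemble in the endoplasmic reticulum into a trimeric helix, after hydroxylation of their prolines and lysines, and are then exported, trimmed and crosslinked. Fibrillar collagens form the load-bearing fibrils of connective tissue and are made in bulk by fibroblasts. Type IV collagen forms the network of basement membranes and is a main product of the primitive endoderm and its parietal derivatives, the lineage that separates from the epiblast in the early embryo. Pluripotent cells are known for making little fibrillar collagen, and the inhibitors of MEK and GSK3 hold mESCs close to the naive epiblast.

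The MNase libraries held 2127850 to 5461210 counts in WT and 6560173 to 8894080 in KI, without overlap, and the RNase I libraries 1965050 to 22916734. Collagen chains took at most 0.252% of the counts of an MNase library. All 8 pluripotency markers (among them Pou5f1, Sox2 and Nanog) had counts in each of the 20 libraries, and their summed level was 3500 to 5155 CPM (counts scaled to the TMM-adjusted library total) in the MNase libraries. Of 44 collagen genes, 29 passed the filter on low counts in the MNase libraries and 26 in the RNase I libraries. The filter asked for about 1.66 CPM, 10 counts at the median library, in as many libraries as a group holds. Only 12 of the 29 were above this level in every library of all groups. Col3a1, Col6a6 and Col27a1 were above it throughout only 1 group, and Col16a1 throughout 0 groups. Col1a2, Col6a1, Col6a2, Col6a4, Col7a1 and Col12a1 were above it throughout only the 2 LIF groups. Col14a1 was so only in the KI groups, and Col26a1 only in the WT groups. All of these members were tested because of the libraries in which they were high. For them, passing the filter and the direction of a call are not independent. The 15 that did not pass were Col4a3, Col4a4, Col4a6, Col8a1, Col8a2, Col9a1, Col10a1, Col11a2, Col15a1, Col19a1, Col20a1, Col23a1, Col24a1, Col25a1 and Col28a1, and the highest level among them was 6.51 CPM, of Col8a1 in WT LIF replicate 2. The table holds no coding lengths, so a level is compared only with the same gene in other libraries, and a sum over genes is a share of footprints that long chains weigh on more. In bulk libraries, fewer cells that make a collagen and less of its RNA per cell cannot be told apart, and with no RNA-seq analysed here neither can RNA level and translation.

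Summed by class, footprints on fibrillar chains were few in LIF/2i and varied most in WT LIF. In the MNase libraries, replicates 1, 2 and 3 in this order, the fibrillar sum was 49.3, 35.8 and 46.7 CPM in WT LIF/2i, 203, 783 and 114 in WT LIF, 60.5, 59.9 and 56.0 in KI LIF/2i and 143, 180.5 and 134 in KI LIF. Every LIF library lay above every LIF/2i library, and WT LIF replicate 2 lay far above the other two of its group. The type IV sum was 39.0, 21.7 and 289 CPM in WT LIF/2i, 366, 543 and 267 in WT LIF, 39.5, 25.3 and 22.3 in KI LIF/2i and 68.8, 91.8 and 86.3 in KI LIF. Here WT LIF/2i replicate 3 stood with the WT LIF libraries and apart from replicates 1 and 2 of its own group. The other classes summed to 645, 500.0 and 742 CPM in WT LIF/2i, 824, 1093 and 824 in WT LIF, 571, 464 and 448 in KI LIF/2i and 665, 749 and 724 in KI LIF. Col18a1 alone took 39.3% (WT LIF replicate 2) to 74.4% (WT LIF/2i replicate 1) of all collagen footprints of an MNase library. As mean ± SD over 3 libraries, the fibrillar sum was 43.9 ± 7.16 and 367 ± 363 CPM in WT LIF/2i and WT LIF, and 58.8 ± 2.42 and 152 ± 24.8 in KI LIF/2i and KI LIF. In RNase I libraries the fibrillar sums were 40.8 and 30.6 CPM in WT LIF/2i, 112 and 732 in WT LIF, 46.7 and 54.6 in KI LIF/2i and 149.8 and 203 in KI LIF, with the same WT LIF replicate number highest. Their type IV sums were 29.2 and 15.4, 385 and 423, 27.3 and 17.4 and 69.0 and 96.2 CPM in the same order of groups.

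**Figure D1:**
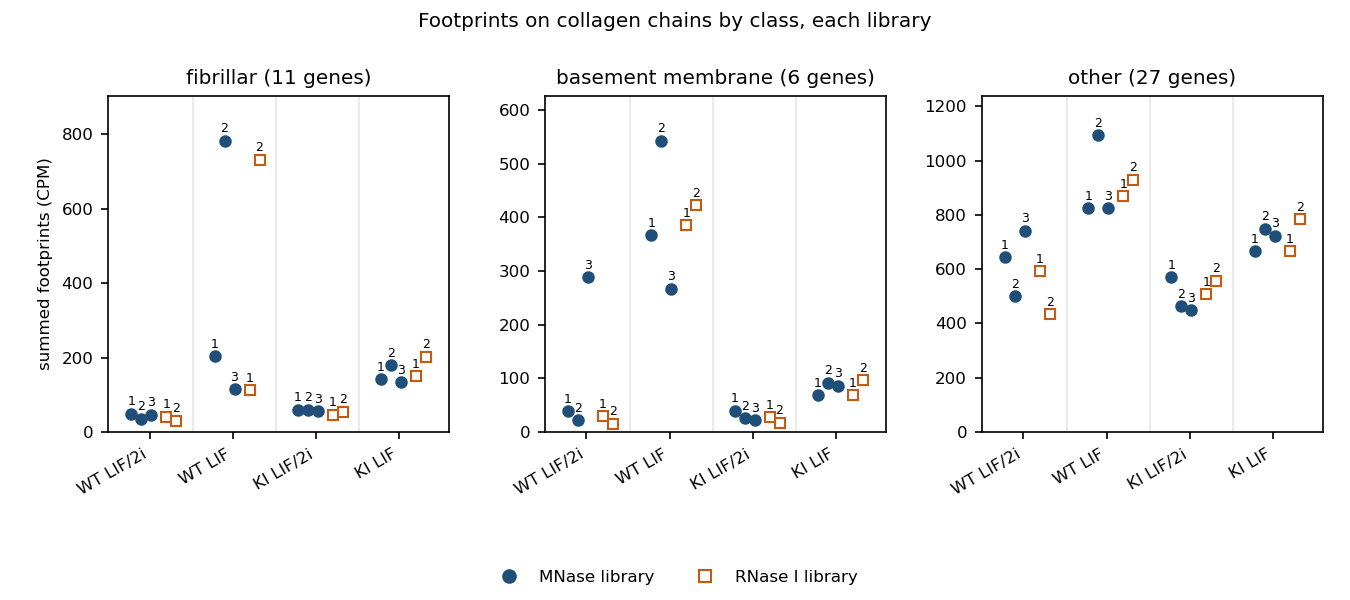
Summed footprints (CPM, linear axes) on the 11 fibrillar, 6 basement membrane and 27 other collagen genes in each library, by group; filled circles are MNase libraries, open squares RNase I libraries, and the digit is the replicate number. WT LIF replicate 2 stands at 783 CPM in the fibrillar panel, and WT LIF/2i replicate 3 at 289 CPM in the basement membrane panel.

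The removal of the inhibitors gave the most calls among the collagens. In WT, 10 of the 29 tested collagen genes had more footprints in LIF than in LIF/2i and 0 had fewer (edgeR's quasi-likelihood test, Benjamini-Hochberg adjusted p under 0.05 over all genes tested), where 9.99% of all 12806 tested genes were called higher and 11% lower. By class, 5 of 9 tested fibrillar genes, 0 of 3 type IV genes and 5 of 17 others were called. Of these 10, Col1a2, Col3a1, Col6a1, Col6a2, Col7a1 and Col12a1 were above the filter level throughout LIF groups only. In KI, 11 were higher (3 of 9 fibrillar, 0 of 3 type IV and 8 of 17 others) and 1 lower, beside 8.37% and 10.3% of all genes. The median log2 fold change over the 29 was 1.20 in WT and 0.94 in KI, and that over all tested genes was 0.01 and 0.00. The libraries of the media did not overlap for 13 of the 29 in WT (44.8%) and 15 in KI (51.7%), beside 42.5% and 34.9% of all tested genes; 9 of the 13 and 11 of the 15 were called. Without KI LIF/2i replicate 2, KI LIF/2i replicate 3 or KI LIF replicate 3, the 12 calls in KI became 5, 7 or 6. The test of the difference between these responses, the genotype by medium interaction, called 0 of the 29 with edgeR and 0 with DESeq2, beside 0.102% of genes called higher and 0.234% lower with edgeR. At an unadjusted p under 0.05, 6 of the 29 passed with either tool, beside 12.2% of all genes with edgeR. The responses of the genotypes were thus not shown to differ for a single collagen in these fits of the MNase libraries. A fit of both nucleases together called 1, Col6a2, and is given with its limit among the alternatives.

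**Figure D2:**
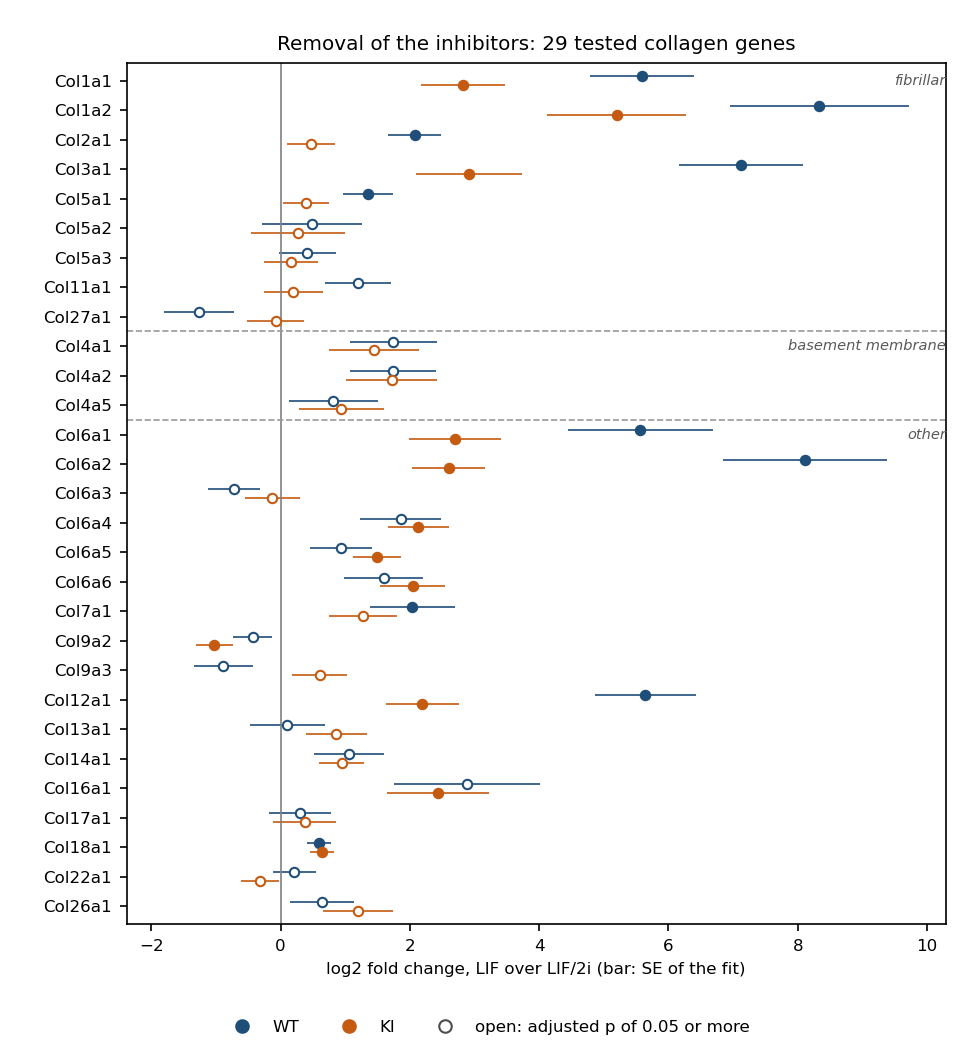
Log2 fold change of LIF over LIF/2i in WT (blue) and KI (orange) for the 29 tested collagen genes, MNase libraries; bars are the SE of the fit, filled points have an adjusted p under 0.05, and dashed lines part the classes. Called points lie to the right of 0 except Col9a2 in KI; the fitted value of Col6a2 in WT rests on a group at 0 counts and depends on the prior count of the fit.

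Between the genotypes, calls were few and went both ways. In LIF/2i, 2 of the 29 had more footprints in KI (Col6a2 and Col14a1) and 3 fewer (Col4a2, Col6a3 and Col26a1), beside 13.8% of all genes called higher and 11.5% lower. In LIF, 2 were higher in KI (Col6a5 and Col14a1) and 4 lower (Col3a1, Col4a1, Col4a2 and Col6a3), beside 7.36% higher and 6.05% lower. The median log2 fold change of KI over WT over the 29 was 0.42 in LIF/2i and -0.39 in LIF, and that over all genes 0.01 and -0.01. Libraries of the genotypes did not overlap for 9 of the 29 in either medium (31%), beside 39.8% of all tested genes in LIF/2i and 35.5% in LIF; 4 of these 9 were called in LIF/2i and 6 in LIF. Both counts rest on single libraries. In LIF/2i the number of called collagens was 5 with all libraries, 1 without WT LIF/2i replicate 3 or KI LIF/2i replicate 2 or 3, and 9 without KI LIF/2i replicate 1. In LIF it was 6 with all libraries, 2 without WT LIF replicate 1 or 2, and 1 without KI LIF replicate 3. Depth moved with genotype, and its part in these counts was examined only by thinning all libraries to the smallest total. Thinning gave 2 calls in LIF/2i, of which only Col6a3 was called before, and 2 in LIF. Col3a1, Col14a1 and Col26a1 did not pass the filter after thinning, so their calls were lost because they were no longer tested.

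**Figure D3:**
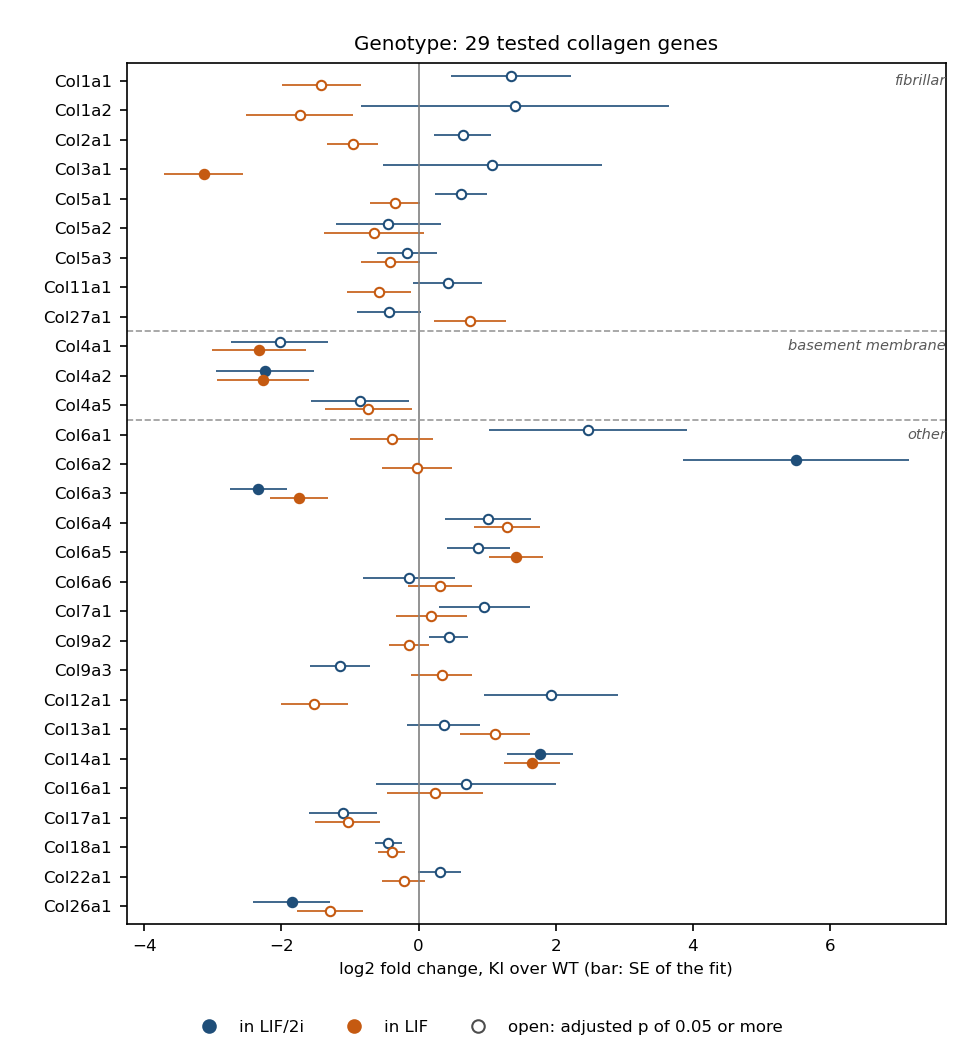
Log2 fold change of KI over WT in LIF/2i (blue) and in LIF (orange) for the 29 tested collagen genes, MNase libraries; bars are the SE of the fit, filled points have an adjusted p under 0.05, and dashed lines part the classes. Col6a3 lies below 0 and Col14a1 above 0 with filled points in both media, and the fitted value of Col6a2 in LIF/2i rests on a WT group at 0 counts.

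Type I collagen, the heterotrimer of the chains Col1a1 and Col1a2 that makes up most fibrils of skin, bone and tendon, rose in LIF in both genotypes. In LIF/2i, Col1a2 had 1 to 13 counts per MNase library, and Col1a1 had 5 to 12 in WT and 42 to 53 in KI. Col1a1 stood at 1.77, 2.93 and 2.95 CPM in WT LIF/2i, 63.9, 289.7 and 25.1 in WT LIF, 6.41, 6.15 and 7.48 in KI LIF/2i and 40.2, 53.7 and 48.0 in KI LIF. Col1a2 stood at 0.709, 0.293 and 0.246 CPM in WT LIF/2i, 39.2, 346 and 13.7 in WT LIF, 0.305, 1.02 and 1.83 in KI LIF/2i and 46.3, 46.6 and 27.6 in KI LIF. For both chains all LIF libraries lay above all LIF/2i libraries of their genotype, and 1 library, WT LIF replicate 2, lay several times above the rest. The log2 fold change of LIF over LIF/2i was 5.59 (SE 0.80, adjusted p = 0.000472) for Col1a1 and 8.33 (SE 1.38, adjusted p = 0.00115) for Col1a2 in WT. In KI it was 2.82 (SE 0.65, adjusted p = 0.00873) and 5.20 (SE 1.08, adjusted p = 0.00495). Neither chain was called between the genotypes in LIF, with log2 fold changes of KI over WT of -1.42 (SE 0.58, adjusted p = 0.123) and -1.73 (SE 0.78, adjusted p = 0.159). Without WT LIF replicate 2, these differences were 0.13 (adjusted p = 0.844) and 0.66 (adjusted p = 0.403), now above 0, and the rises in WT were 4.05 and 5.95 (adjusted p = 0.000147 and 0.000440). In LIF/2i Col1a1 was higher in each KI library than in each WT library, with a log2 fold change of 1.35 (SE 0.87, adjusted p = 0.270), and without WT LIF replicate 2 the same difference had an adjusted p of 0.0272.

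With RNase I the gap between the WT LIF replicates was there too. Col1a1 was 18.9 and 245 CPM and Col1a2 13.7 and 314 CPM in replicates 1 and 2 of WT LIF, with 45.1 and 72.0 and 44.7 and 52.2 CPM in KI LIF. Replicate 2 was thus the high one with either nuclease. The ratio of Col1a1 to Col1a2 counts, which is not corrected for length, ran from 2.50 to 21.0 in the 6 MNase libraries in LIF/2i and from 0.838 to 1.83 in those in LIF. In LIF/2i it rests on the few Col1a2 counts given above. Acta2 and Tagln, 2 members of a list of 18 fibroblast and feeder markers, were highest among the WT MNase libraries in the same library. Acta2, smooth-muscle actin, was 33.8, 195 and 20.2 CPM in WT LIF and 3.55, 4.40 and 6.15 in WT LIF/2i. Tagln, transgelin, was 32.9, 165 and 38.2 CPM in WT LIF and 0, 0.587 and 0.492 in WT LIF/2i. Over the whole list of 18 fibroblast and feeder markers, the sum in the MNase libraries was 1029 CPM in WT LIF replicate 2 and 494 and 431 in replicates 1 and 3. The range was 297 to 689.7 CPM in WT LIF/2i, 243 to 665 in KI LIF/2i and 483 to 1081 in KI LIF. In this sum replicate 1 was the highest KI library in either medium, while for neither type I chain was it the highest. Of the 11 tested, 6 were higher in LIF in WT and 3 in KI, 2 were higher in KI in LIF/2i and 0 in LIF, and 0 were lower. Beside these counts, 9.99%, 8.37%, 13.8% and 7.36% of all tested genes were called higher in the same order of comparisons. Between 1 and 7 of the 18 were at 0 in an MNase library. Fap was at 0 in all MNase libraries but 1, Lum and Twist2 did not exceed 0.542 CPM and Dcn did not exceed 2.74 CPM. The part of such cells in the collagen values was not tested.

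**Figure D4:**
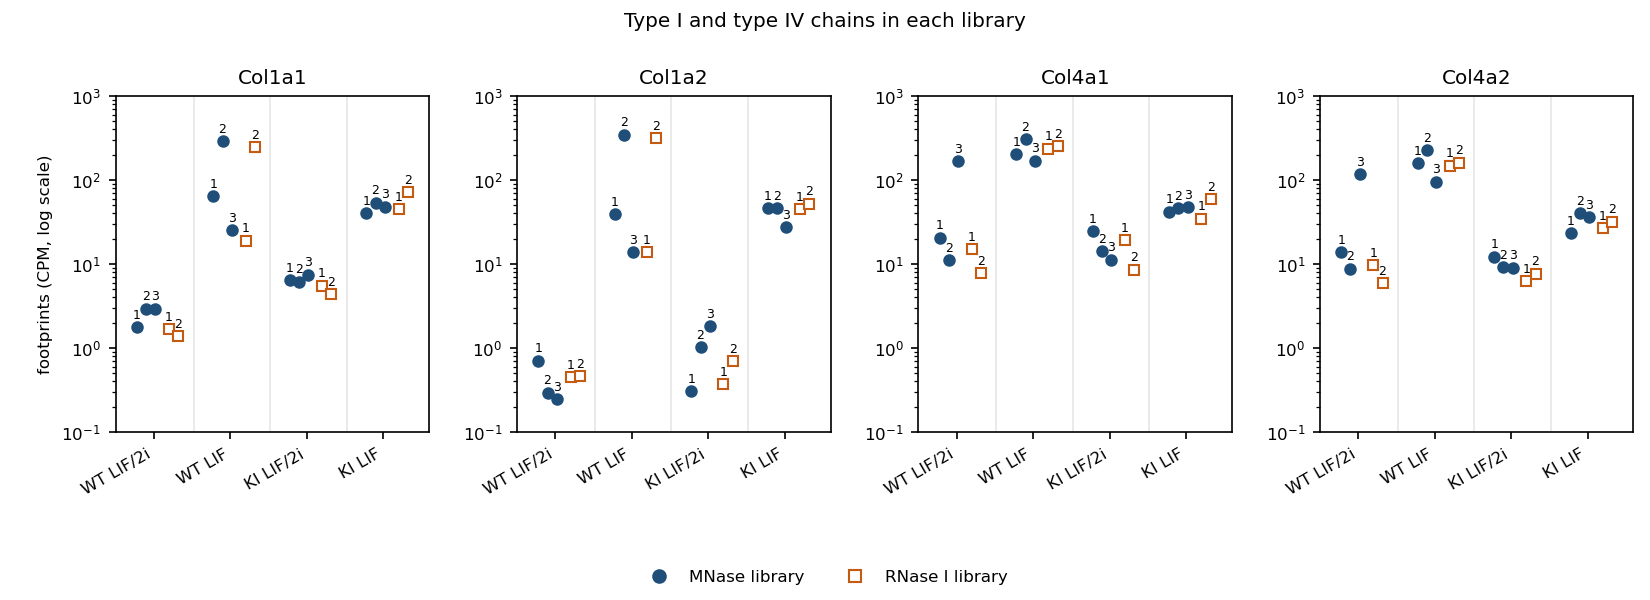
Footprints (CPM, log axes) on Col1a1, Col1a2, Col4a1 and Col4a2 in each library, by group; filled circles are MNase libraries, open squares RNase I libraries, and the digit is the replicate number. Replicate 2 of WT LIF is highest for both type I chains with either nuclease, and replicate 3 of WT LIF/2i lies at 168 CPM for Col4a1 and 118 CPM for Col4a2.

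The RefSeq promoter of Col1a2, the type I chain with the larger fitted rise in WT, is shown for its CCAAT boxes, the motif bound by the factor NF-Y (CCAAT on either strand, in capitals). The window covers 250 bases before to 50 after the start annotated in RefSeq, chr6:4505368-4505667 on the plus strand of GRCm38.p6. The second match, on the minus strand, begins at this annotated start. Where transcription starts in these cells was not measured.
Col1a2: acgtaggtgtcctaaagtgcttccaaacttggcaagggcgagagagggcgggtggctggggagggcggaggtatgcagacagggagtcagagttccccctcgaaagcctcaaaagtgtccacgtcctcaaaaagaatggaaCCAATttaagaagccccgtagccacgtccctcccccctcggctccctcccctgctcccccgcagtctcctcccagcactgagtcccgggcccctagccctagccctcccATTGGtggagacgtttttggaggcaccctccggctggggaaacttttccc
The table of RefSeq promoter windows held 35 of the 44 collagen genes, with 38 windows of 300 bases. CCAAT was in 34.2% of these windows and 37.4% of all 32851 windows, TATAAA in 13.2% and 13.6%, and the GC box GGGCGG in 60.5% and 35.7%, each read on both strands. A match is only a match of letters.

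Type III collagen, a homotrimer of Col3a1 chains in the fibrils of distensible tissues, was the fibrillar chain with a called difference between genotypes. Col3a1 was 0.355, 0 and 0 CPM in WT LIF/2i, 27.4, 17.6 and 6.86 in WT LIF, 0, 0.256 and 0.423 in KI LIF/2i and 1.23, 3.04 and 1.45 in KI LIF. In LIF every WT library was above every KI library, and in LIF/2i both genotypes were at or near 0. It rose in LIF in WT, from 1 count to 164 counts over the group, a depth-corrected ratio of 149.6 with a 95% counting interval of 26.5 to 5943, and in KI, with a log2 fold change of 2.91 (SE 0.82, adjusted p = 0.0248). KI was lower than WT in LIF, at a log2 fold change of -3.13 (SE 0.58, adjusted p = 0.00502). With RNase I, Col3a1 was 0.901 and 11.8 CPM in WT LIF and 4.34 and 4.83 in KI LIF, overlapping, and the difference was not called (-0.46, adjusted p = 0.897). Col3a1 lost its call between the media in KI without KI LIF/2i replicate 1 or 2 or KI LIF replicate 2 (log2 fold change 2.41 to 2.98, adjusted p 0.0596 to 0.0931). Its neighbour on the chromosome, Col5a2, showed no call in the same comparisons, with 7.76, 7.05 and 2.99 CPM in WT LIF and a log2 fold change over LIF/2i of 0.48 (SE 0.77, adjusted p = 0.708).

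The chains that nucleate or modulate fibrils had footprints in every group. Col5a1, the main chain of type V collagen, which starts type I fibrils, was 14.2, 9.39 and 14.0 CPM in WT LIF/2i, 22.4, 55.9 and 17.6 in WT LIF, 26.3, 15.7 and 15.8 in KI LIF/2i and 23.1, 26.5 and 25.9 in KI LIF. All WT LIF libraries exceeded all WT LIF/2i libraries, and replicate 2 of WT LIF was again highest. It rose in WT by 1.35 (SE 0.39, adjusted p = 0.0255) on the log2 scale and was not called in KI, 0.39 (SE 0.36, adjusted p = 0.492). Col5a1 lost the WT call without WT LIF/2i replicate 1 or 2 or WT LIF replicate 2 (log2 fold change 0.66 to 1.43, adjusted p 0.0594 to 0.155), with the smallest value, 0.66, without WT LIF replicate 2. Col5a3, a further type V chain, stood at 9.93, 5.28 and 14.0 CPM in WT LIF/2i, 14.1, 9.76 and 15.3 in WT LIF, 4.43, 12.9 and 8.75 in KI LIF/2i and 6.46, 14.8 and 8.27 in KI LIF, and the groups overlapped without a call in any comparison.

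Col2a1, the chain of cartilage type II collagen, was 7.45, 7.92 and 5.41 CPM in WT LIF/2i, 22.8, 38.5 and 25.5 in WT LIF, 9.16, 11.8 and 11.3 in KI LIF/2i and 6.15, 24.03 and 14.6 in KI LIF. The WT media did not overlap, and the KI media did. The WT rise was 2.08 (SE 0.41, adjusted p = 0.00361) on the log2 scale and held without each single library; the KI value was 0.47 (SE 0.37, adjusted p = 0.414) and the interaction -1.60 (SE 0.56, adjusted p = 0.268). Col11a1, which joins type II in cartilage fibrils, stood at 3.55, 6.46 and 2.46 CPM in WT LIF/2i, 5.48, 17.4 and 5.45 in WT LIF, 6.26, 6.15 and 4.23 in KI LIF/2i and 8.77, 6.22 and 4.24 in KI LIF. Its WT value, 1.20 (SE 0.51, adjusted p = 0.115), was not called, whereas its RNase I libraries, 4.61 and 6.58 CPM in LIF/2i and 13.5 and 23.4 in LIF, gave 1.73 (SE 0.37, adjusted p = 0.0170). Col27a1 was tested without a call for genotype or medium, and Col11a2 and Col24a1 did not exceed 1.92 CPM in an MNase library.

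In type IV collagen, 1 library of WT LIF/2i stood apart from its group. Col4a1 was 20.6, 11.2 and 168 CPM in WT LIF/2i, 205, 305 and 169.5 in WT LIF, 24.6, 14.2 and 11.3 in KI LIF/2i and 42.2, 45.9 and 47.5 in KI LIF. Col4a2, which trimerises with Col4a1 in nearly all basement membranes, was 13.8, 8.80 and 118 CPM in WT LIF/2i, 159.7, 225 and 95.7 in WT LIF, 12.2, 9.09 and 9.03 in KI LIF/2i and 23.1, 39.9 and 36.4 in KI LIF. Replicate 3 of WT LIF/2i held levels like those of WT LIF, while replicates 1 and 2 lay with the KI LIF/2i libraries. KI LIF lay between, above all KI LIF/2i libraries and below all WT LIF libraries.

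With all MNase libraries, neither chain was called between the media, with log2 fold changes of 1.74 (SE 0.67, adjusted p = 0.0832) for Col4a1 and 1.74 (SE 0.67, adjusted p = 0.0806) for Col4a2 in WT, and 1.44 (SE 0.70, adjusted p = 0.171) and 1.72 (SE 0.70, adjusted p = 0.109) in KI. Without WT LIF/2i replicate 3 both were called in both genotypes, at 3.84 (SE 0.39, adjusted p = 0.000108) and 3.82 (SE 0.40, adjusted p = 0.000144) in WT and 1.45 (SE 0.29, adjusted p = 0.00493) and 1.73 (SE 0.31, adjusted p = 0.00254) in KI. The interaction was then -2.39 (SE 0.47, adjusted p = 0.0671) and -2.09 (SE 0.49, adjusted p = 0.108), not past the threshold. The RNase I libraries are of replicates 1 and 2; in those of WT LIF/2i Col4a1 was 14.9 and 7.74 CPM, against 235 and 251 in WT LIF, 19.3 and 8.59 in KI LIF/2i and 34.7 and 59.5 in KI LIF. The RNase I fit called both chains between the media in WT, 4.39 (SE 0.45, adjusted p = 0.00174) and 4.28 (SE 0.28, adjusted p = 0.000568).

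Between the genotypes in LIF, KI was lower for both chains, at log2 fold changes of -2.32 (SE 0.68, adjusted p = 0.0394) for Col4a1 and -2.26 (SE 0.67, adjusted p = 0.0412) for Col4a2. The calls were lost for Col4a1 without WT LIF replicate 1, 2 or 3, KI LIF/2i replicate 2 or KI LIF replicate 1, 2 or 3 (log2 fold change -2.04 to -2.47, adjusted p 0.0509 to 0.116) and for Col4a2 without WT LIF replicate 1, 2 or 3, KI LIF/2i replicate 2 or 3 or KI LIF replicate 1, 2 or 3 (log2 fold change -1.93 to -2.51, adjusted p 0.0528 to 0.128). Without WT LIF/2i replicate 3 they were -2.31 (SE 0.29, adjusted p = 0.00160) and -2.24 (SE 0.30, adjusted p = 0.00168). The RNase I fit called Col4a2 lower in KI LIF, -2.40 (SE 0.26, adjusted p = 0.0331), and gave -2.37 (SE 0.42, adjusted p = 0.116) for Col4a1. In LIF/2i, the lower level of Col4a2 in KI, -2.24 (SE 0.72, adjusted p = 0.0363), rested on WT LIF/2i replicate 3. Without it the value was -0.15 (SE 0.40, adjusted p = 0.814), and that of Col4a1 0.08 (SE 0.37, adjusted p = 0.895). In all, Col4a2 lost this call without WT LIF/2i replicate 3, WT LIF replicate 1 or KI LIF/2i replicate 2 or 3 (log2 fold change -0.15 to -2.23, adjusted p 0.0504 to 0.814).

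Endoderm markers were set beside type IV, and their summed level went with it in part. Like type IV, the sum in the MNase libraries was higher in WT LIF than in WT LIF/2i, and lower in KI LIF than in WT LIF. Unlike type IV, it was lower in KI LIF than in KI LIF/2i, and in WT LIF/2i it was lowest in replicate 3. With RNase I the KI media overlapped, at 1779 and 1610 CPM in LIF/2i and 1777 and 1481 in LIF. Single markers differed from the sum: in KI, 5 were called higher in LIF and 1 lower. Cubn, the endocytic receptor cubilin of visceral endoderm, was 0, 0 and 5.90 CPM in WT LIF/2i, 43.3, 60.8 and 32.2 in WT LIF, 0.305, 0.256 and 0 in KI LIF/2i and 1.38, 6.66 and 2.12 in KI LIF, with WT LIF/2i replicate 3 above replicates 1 and 2. Gata6, a transcription factor of primitive endoderm, was 9.22, 6.75 and 5.41 CPM in WT LIF/2i, 11.9, 12.2 and 13.7 in WT LIF, 1.07, 0.896 and 1.41 in KI LIF/2i and 3.38, 2.75 and 2.23 in KI LIF, and there replicate 3 of WT LIF/2i was the lowest of its group. Of 19 endoderm markers without collagens, 15 were tested. In KI against WT in LIF/2i, 2 were higher and 3 lower, beside 13.8% and 11.5% of all tested genes. In LIF against LIF/2i in WT, 8 were higher and 1 lower, beside 9.99% and 11%. The same comparison in KI gave 5 higher and 1 lower, beside 8.37% and 10.3%. In KI LIF against WT LIF, 0 were higher and 8 lower, beside 7.36% and 6.05%. In the MNase libraries the sum over the 19 was 1122 to 1346 CPM in WT LIF/2i and 1387 to 1570 in WT LIF. It was 1457 to 1601 in KI LIF/2i and 1049 to 1219 in KI LIF, with 1 to 4 of the 19 at 0 in an MNase library. The part of endoderm-like cells in the collagen values was not tested. Col4a5, a chain of the minor type IV networks, reached 1.37, 10.8 and 1.58 CPM in WT LIF, with no call, and Col4a3, Col4a4 and Col4a6 did not exceed 2.44 CPM.

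The ratio of Col4a1 to Col4a2 counts, not corrected for length, was 1.15 to 2.01 in the 12 MNase libraries, and 1.43 in WT LIF/2i replicate 3. In the RNase I libraries it was 1.12 to 3.11, the highest in KI LIF/2i replicate 1. The genes lie head to head, and their RefSeq promoter windows (250 bases before to 50 after each start, GRCm38.p6) overlap in opposite directions by 78 bases, chr8:11312777-11312854, in capitals. The windows are chr8:11312777-11313076 on the minus strand for Col4a1 and chr8:11312555-11312854 on the plus strand for Col4a2, with the starts 21 bases apart.
Col4a1: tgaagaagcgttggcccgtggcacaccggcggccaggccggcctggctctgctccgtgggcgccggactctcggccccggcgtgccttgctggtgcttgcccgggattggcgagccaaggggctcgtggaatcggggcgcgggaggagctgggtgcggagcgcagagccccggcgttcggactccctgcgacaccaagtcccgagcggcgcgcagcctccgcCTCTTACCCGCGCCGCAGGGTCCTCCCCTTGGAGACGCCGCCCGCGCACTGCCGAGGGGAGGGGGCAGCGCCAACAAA
Col4a2: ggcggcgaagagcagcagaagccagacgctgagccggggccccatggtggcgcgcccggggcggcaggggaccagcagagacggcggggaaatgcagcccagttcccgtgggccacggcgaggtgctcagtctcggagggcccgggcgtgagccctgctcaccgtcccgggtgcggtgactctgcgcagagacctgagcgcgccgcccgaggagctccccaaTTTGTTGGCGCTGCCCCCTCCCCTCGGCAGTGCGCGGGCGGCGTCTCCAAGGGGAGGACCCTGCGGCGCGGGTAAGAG
The capitals of either line are the reverse complement of the other. Both windows hold CCAAT and GGGCGG, and the shared stretch holds a GGGCGG.

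Type VI collagen forms beaded filaments around cells from Col6a1, Col6a2 and a further chain, most often Col6a3, in whose place Col6a4, Col6a5 or Col6a6 can stand. Col6a1 was 0.355, 0 and 0 CPM in WT LIF/2i, 3.19, 11.4 and 2.46 in WT LIF, 0.153, 0.768 and 0.988 in KI LIF/2i and 2.15, 4.92 and 5.81 in KI LIF. Col6a2, its neighbour on the chromosome, was 0, 0 and 0 CPM in WT LIF/2i, 5.02, 10.3 and 3.69 in WT LIF, 0.305, 1.54 and 1.13 in KI LIF/2i and 3.54, 7.82 and 7.26 in KI LIF. Both were at or near 0 in WT LIF/2i and present in every LIF library. Col6a2 rose in WT at least 21.3-fold, set against a floor of 3 counts over the 3 WT LIF/2i libraries (adjusted p = 0.00130), and in KI by 2.60 (SE 0.57, adjusted p = 0.00884) on the log2 scale. Col6a1 rose in WT from 1 to 63 counts, a ratio of 57.5 with a 95% counting interval of 9.94 to 2305 (adjusted p = 0.00396), and in KI by 2.70 (SE 0.71, adjusted p = 0.0172). Col6a1 lost the KI call without KI LIF/2i replicate 2 or KI LIF replicate 3 (log2 fold change 2.41 to 2.84, adjusted p 0.0544 to 0.0702). Col6a2 was also at least 3.26-fold higher in KI than WT in LIF/2i, 22 counts against 0 (adjusted p = 0.0314), a call lost without WT LIF/2i replicate 1, 2 or 3 or KI LIF/2i replicate 2 or 3 (log2 fold change 4.98 to 5.56, adjusted p 0.0606 to 0.0878); the fitted values rest on the prior count.

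Col6a3 was lower in KI in both media. It was 14.9, 23.8 and 37.4 CPM in WT LIF/2i, 18.7, 11.4 and 16.9 in WT LIF, 6.11, 3.71 and 5.36 in KI LIF/2i and 2.00, 7.24 and 4.58 in KI LIF. Every WT library of a medium was above every KI library of that medium, and the media overlapped in both genotypes. KI was lower in LIF/2i, at a log2 fold change of -2.34 (SE 0.42, adjusted p = 0.00243), and this call held without each single library. In LIF the difference was -1.75 (SE 0.43, adjusted p = 0.0182), lost without WT LIF replicate 1 or 3 or KI LIF replicate 3 (log2 fold change -1.61 to -1.74, adjusted p 0.0659 to 0.0695). The RNase I libraries held 20.1 and 27.5 CPM in WT LIF/2i, 14.9 and 8.61 in WT LIF, 6.14 and 10.7 in KI LIF/2i and 3.47 and 6.28 in KI LIF. Again the genotypes did not overlap in either medium. The log2 fold changes of KI over WT, -1.54 (SE 0.40, adjusted p = 0.179) in LIF/2i and -1.28 (SE 0.49, adjusted p = 0.318) in LIF, did not pass. In WT LIF/2i, these Col6a3 levels stood beside 0 counts of Col6a2 in all libraries, and of Col6a1 0 or 1 count per library with MNase and 3 and 0 with RNase I.

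The chains that can replace Col6a3 rose in LIF in KI. Col6a4 was 0, 0.880 and 1.97 CPM in WT LIF/2i, 5.93, 2.71 and 3.34 in WT LIF, 1.37, 3.07 and 1.83 in KI LIF/2i and 9.85, 8.25 and 9.94 in KI LIF. Its KI rise was 2.13 (SE 0.47, adjusted p = 0.00716), which held without each single library, and its WT value 1.86 (SE 0.63, adjusted p = 0.0511). The RNase I fit called it in KI as well, at 3.41 (SE 0.68, adjusted p = 0.0346). Col6a5 was 1.06, 2.64 and 1.48 CPM in WT LIF/2i, 2.28, 2.71 and 4.57 in WT LIF, 3.51, 4.10 and 1.98 in KI LIF/2i and 6.31, 10.3 and 10.4 in KI LIF. It rose in KI by 1.49 (SE 0.37, adjusted p = 0.0139) and was higher in KI than WT in LIF by 1.42 (SE 0.39, adjusted p = 0.0314), all KI LIF libraries being above all WT LIF libraries. Col6a5 lost the first call without KI LIF/2i replicate 3 or KI LIF replicate 2 or 3 (log2 fold change 1.23 to 1.38, adjusted p 0.0522 to 0.0649) and the second without WT LIF replicate 1 or 2 or KI LIF replicate 2 or 3 (log2 fold change 1.29 to 1.33, adjusted p 0.0862 to 0.112). Col6a6 was 0.709, 0.293 and 0.983 CPM in WT LIF/2i, 1.37, 1.08 and 3.34 in WT LIF, 0.916, 0.512 and 0.423 in KI LIF/2i and 2.77, 2.32 and 2.68 in KI LIF, with a KI rise of 2.05 (SE 0.50, adjusted p = 0.0127) that was lost without KI LIF/2i replicate 2 or 3 (log2 fold change 1.84 to 1.92, adjusted p 0.0606 to 0.0607). Col6a4, Col6a5 and Col6a6 are neighbours on the chromosome, and the interaction was not called for any of the 3, at 0.28, 0.55 and 0.45 on the log2 scale.

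**Figure D5:**
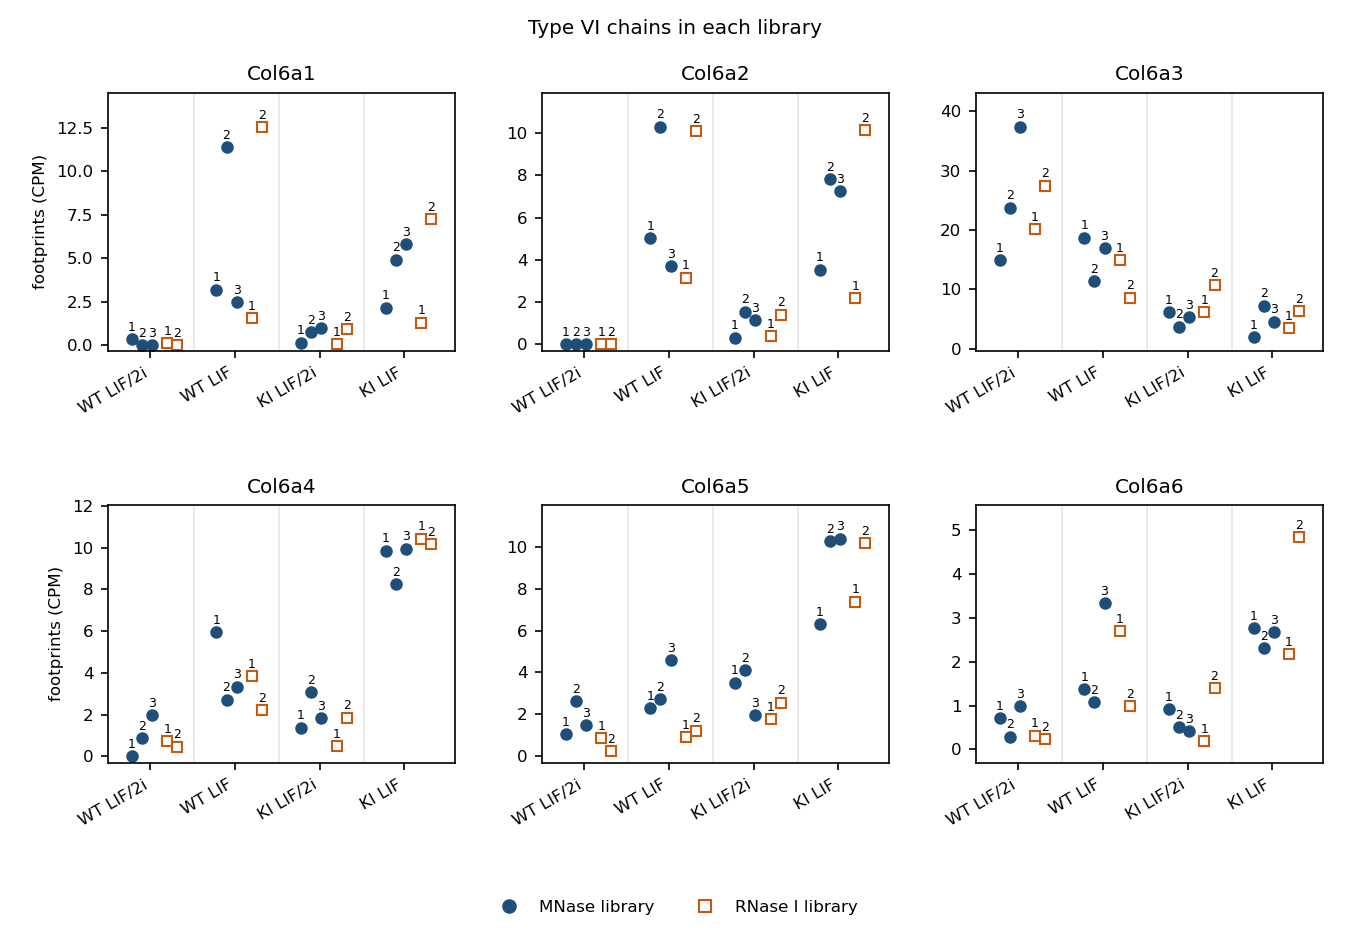
Footprints (CPM, linear axes that differ between panels) on the type VI chains in each library, by group; filled circles are MNase libraries, open squares RNase I libraries, and the digit is the replicate number. Col6a2 is at 0 in all WT LIF/2i libraries, and Col6a3 is at 14.9 CPM or more in all of them.

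Among the fibril-associated collagens, which sit on the surface of fibrils without forming any, Col12a1 rose in LIF and Col9a2 fell in KI. Col12a1 was 0.355, 0 and 0.492 CPM in WT LIF/2i, 17.3, 25.5 and 4.75 in WT LIF, 1.22, 0.896 and 1.41 in KI LIF/2i and 4.00, 5.50 and 6.70 in KI LIF. Media did not overlap in either genotype. In WT it rose from 3 to 159 counts, a ratio of 48.3 with a 95% counting interval of 16.2 to 237 (adjusted p = 0.000386), and in KI by 2.19 (SE 0.57, adjusted p = 0.0162); the difference of KI from WT in LIF, -1.52 (SE 0.49, adjusted p = 0.0573), missed the threshold. Col12a1 lost the KI call without KI LIF/2i replicate 2 or KI LIF replicate 3 (log2 fold change 2.00 to 2.02, adjusted p 0.0614 to 0.0693). Col14a1 was 0.709, 1.17 and 0.492 CPM in WT LIF/2i, 2.28, 1.08 and 1.76 in WT LIF, 1.99, 3.20 and 2.96 in KI LIF/2i and 6.77, 3.91 and 5.14 in KI LIF. It was higher in KI in LIF/2i, by 1.77 (SE 0.49, adjusted p = 0.0185), and in LIF, by 1.65 (SE 0.41, adjusted p = 0.0192), with no overlap of genotypes in either medium. Col14a1 lost these calls without WT LIF/2i replicate 1 or 3 or KI LIF/2i replicate 2 or 3 (log2 fold change 1.48 to 1.72, adjusted p 0.0504 to 0.0801) in LIF/2i and without WT LIF replicate 2 or 3 or KI LIF replicate 3 (log2 fold change 1.42 to 1.74, adjusted p 0.0579 to 0.0790) in LIF, and it was not called between the media. In the RNase I libraries it was 1.18 and 0.924 CPM in WT LIF/2i, 4.73 and 2.21 in WT LIF, 3.81 and 2.09 in KI LIF/2i and 8.68 and 4.83 in KI LIF.

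Type IX collagen coats the type II fibrils of cartilage as a trimer of Col9a1, Col9a2 and Col9a3. Col9a2 was 58.5, 59.6 and 47.9 CPM in WT LIF/2i, 52.9, 35.8 and 35.5 in WT LIF, 45.7, 94.0 and 85.5 in KI LIF/2i and 23.5, 46.5 and 40.8 in KI LIF. KI replicate 1 was the lowest KI library in either medium. Col9a2 fell in KI by 1.02 on the log2 scale (SE 0.28, adjusted p = 0.0232). Each KI LIF library was below the KI LIF/2i library of its number, while KI LIF replicate 2 lay just above KI LIF/2i replicate 1. The call was lost without KI LIF/2i replicate 2 or 3 or KI LIF replicate 1 or 3 (log2 fold change -0.79 to -1.10, adjusted p 0.0539 to 0.101). Col9a3 was 7.80, 3.23 and 13.03 CPM in WT LIF/2i, 3.65, 3.53 and 5.63 in WT LIF, 3.82, 3.84 and 3.25 in KI LIF/2i and 3.69, 7.67 and 5.25 in KI LIF, with no call, and Col9a1 did not exceed 0.611 CPM. Col16a1, a further fibril-associated chain, was 0, 0.293 and 0.246 CPM in WT LIF/2i, 1.37, 3.25 and 0.352 in WT LIF, 0.153, 0.256 and 0.565 in KI LIF/2i and 0.615, 2.32 and 2.57 in KI LIF. Its KI rise, 2.44 (SE 0.79, adjusted p = 0.0463), was lost without WT LIF/2i replicate 1, 2 or 3, WT LIF replicate 1, KI LIF/2i replicate 1, 2 or 3 or KI LIF replicate 2 or 3 (log2 fold change 2.10 to 3.02, adjusted p 0.0528 to 0.162), and with DESeq2.

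Col18a1, whose product is a heparan sulfate proteoglycan of basement membranes and the source of endostatin, gave the most footprints of all collagens in each MNase library. It was 545, 394 and 615 CPM in WT LIF/2i, 684, 950.2 and 712 in WT LIF, 491, 328 and 326 in KI LIF/2i and 584, 608 and 594 in KI LIF. All LIF libraries were above all LIF/2i libraries of their genotype. The rises were small, 0.59 (SE 0.19, adjusted p = 0.0428) in WT and 0.64 (SE 0.19, adjusted p = 0.0332) in KI on the log2 scale, and the log2 fold change of KI over WT was -0.44 in LIF/2i and -0.39 in LIF without a call. Col18a1 lost the WT call without WT LIF/2i replicate 1 or 2, WT LIF replicate 1, 2 or 3 or KI LIF replicate 2 or 3 (log2 fold change 0.42 to 0.67, adjusted p 0.0540 to 0.175) and the KI call without KI LIF/2i replicate 2 or 3 or KI LIF replicate 2 or 3 (log2 fold change 0.54 to 0.64, adjusted p 0.0814 to 0.132). With it left out, the sum of the other 43 collagens was 188, 164 and 462 CPM in WT LIF/2i, 709, 1469 and 494 in WT LIF, 179.7, 221 and 201 in KI LIF/2i, and 293, 413 and 349.8 in KI LIF.

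Col7a1, the chain of the fibrils that anchor the epidermal basement membrane to the dermis, was 0.709, 0.587 and 2.46 CPM in WT LIF/2i, 1.83, 8.41 and 5.63 in WT LIF, 1.53, 2.94 and 3.25 in KI LIF/2i and 3.23, 8.83 and 6.70 in KI LIF. The libraries of the WT media overlapped. Its WT rise was 2.04 (SE 0.65, adjusted p = 0.0408), and the RNase I libraries, 0.543 and 0.462 CPM in WT LIF/2i and 5.63 and 9.10 in WT LIF, gave 3.80 (SE 0.59, adjusted p = 0.00559). With MNase, Col7a1 lost the call without WT LIF/2i replicate 1 or 2, WT LIF replicate 2 or 3, KI LIF/2i replicate 2 or 3 or KI LIF replicate 3 (log2 fold change 1.62 to 2.04, adjusted p 0.0502 to 0.151). Col26a1 was 2.13, 2.64 and 3.44 CPM in WT LIF/2i, 2.74, 3.80 and 5.98 in WT LIF, 1.37, 0.640 and 0.282 in KI LIF/2i and 1.23, 2.61 and 1.45 in KI LIF. It was lower in KI in LIF/2i, at a log2 fold change of -1.85 (SE 0.56, adjusted p = 0.0285), with no overlap, a call lost without WT LIF/2i replicate 2 or 3 or KI LIF/2i replicate 2 or 3 (log2 fold change -1.46 to -1.88, adjusted p 0.0610 to 0.105). With RNase I it was 1.27 and 1.27 CPM in WT LIF/2i and 1.04 and 0.929 in KI LIF/2i. The transmembrane chains Col13a1 and Col17a1 and the fibril-associated Col22a1 were tested without a call for genotype or medium.

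The RNase I libraries, fitted alone with 2 replicates a group, called 13 of 26 tested collagens higher in LIF than LIF/2i in WT and 0 lower, beside 7.17% and 6.47% of all genes. All 10 genes called with MNase were among them, the others being Col4a1, Col4a2 and Col11a1. In KI 2 were higher (Col4a2 and Col6a4) and 0 lower, beside 1.41% and 2.04%. Between genotypes, 0 were called in LIF/2i, beside 0.116% of genes higher and 0.116% lower, and 1 (Col4a2) was lower in LIF, beside 0% higher and 0.116% lower. In LIF/2i, 5 of the 26 passed an unadjusted p of 0.05, beside 12.8% of all genes. RNase I was set against MNase over the replicate numbers both have, 1 and 2, in a fit with no term for replicate. That fit counts the libraries of 1 replicate number as separate replicates, which they may not be. The count with a block stands among the alternatives. Without it, 0 of 30 collagens were higher and 2 lower with RNase I, beside 15.7% and 16.4% of all genes. These were Col17a1, -0.88 (SE 0.32, adjusted p = 0.0457), and Col27a1, -1.74 (SE 0.43, adjusted p = 0.00563), and the first was not called without WT LIF/2i replicate 1 or 2, WT LIF replicate 2 or KI LIF/2i replicate 1 (adjusted p 0.0534 to 0.121).

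Genes that modify, export and process collagens changed in part. Of all tested genes, 9.99% were called higher and 11% lower in LIF in WT, and 8.37% and 10.3% in KI. Between genotypes, 13.8% were called higher and 11.5% lower in KI in LIF/2i, and 7.36% and 6.05% in LIF. These shares stand beside the list counts here and in the paragraphs below, and the counts of 1 of 8 for export are near them. Of 17 tested genes for modification and folding, 3 were higher and 4 lower in LIF in WT, and 3 and 4 in KI. Serpinh1, the chaperone HSP47 that binds the collagen helix, rose by 1.65 (SE 0.30) in WT and 1.21 (SE 0.29) in KI on the log2 scale. Its level was 137, 98.6 and 101 CPM in WT LIF/2i, 277, 483 and 294 in WT LIF, 76.0, 152 and 167 in KI LIF/2i and 228, 317 and 372 in KI LIF, highest in WT LIF replicate 2 among WT libraries. Fkbp10, a prolyl isomerase of procollagen, rose by 3.71 (SE 0.53) in WT and 2.06 (SE 0.40) in KI, and was higher in KI than WT in LIF/2i by 2.25 (SE 0.54). The prolyl 3-hydroxylase P3h1 fell by 0.63 and 0.71 and its partner Crtap by 0.59 and 1.02 in WT and KI. Of the 17, 1 was higher (Fkbp10) and 1 lower (Fkbp14) in KI in LIF/2i, and 0 and 0 in LIF. Of 8 genes for procollagen export, 1 rose in LIF (Creb3l1) and 1 fell (Sec23a, a coat protein of export vesicles) in each genotype, and in LIF/2i KI was higher for Klhl12 and lower for Sec24d.

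Of 9 tested genes for removal of propeptides and crosslinking, 4 rose and 0 fell in LIF in each genotype. Bmp1, the C-propeptidase of fibrillar procollagens, rose by 3.80 (SE 0.78) in WT and 1.87 (SE 0.57) in KI, and the crosslinking oxidase Loxl1 by 4.42 (SE 0.78) and 1.82 (SE 0.47). Pcolce, the enhancer of that propeptidase, was higher in KI than WT in LIF/2i, by 2.43 (SE 0.32), and in LIF, by 1.53 (SE 0.30); 3 of the 9 were higher in KI in LIF/2i and 2 in LIF, with 0 lower. Of 6 tested collagen receptors, 3 rose and 1 fell in LIF in each genotype. Ddr1, a receptor tyrosine kinase for collagens, rose by 1.24 (SE 0.21) and 1.40 (SE 0.20), while Ddr2, its relative that binds fibrillar collagens, was at -1.89 in WT and -4.17 in KI. Ddr2 was also lower in KI than WT in LIF, -2.42 (SE 0.51). Of 4 tested proteases, Mmp9 and Mmp14 rose in both genotypes and 0 fell, and Mmp14 was higher in KI in LIF/2i.

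The matrix proteins that bind collagens split. Of 14 tested, 5 were higher and 5 lower in LIF in WT, and 2 higher and 5 lower in KI. Fibronectin, Fn1, fell by 1.58 in WT and 1.60 in KI, and Nid1, which links laminin to type IV collagen, by 2.17 and 2.36. Lamb1, a laminin chain, rose by 1.74 (SE 0.17) and 1.40 (SE 0.16), and the laminin chain Lama1 by 1.65 (SE 0.21) in WT. Lama1 was 127, 130.5 and 97.8 CPM in WT LIF and 41.5, 37.6 and 39.3 in KI LIF, and it was lower in KI, at -1.58 (SE 0.21), with Hspg2, perlecan, at -1.11 (SE 0.27) and Agrn, agrin, at -0.96 (SE 0.26). In LIF, KI was thus lower for 4 of the 14 and higher for 1 (Fbln1), and in LIF/2i lower for 0 and higher for 3. The interaction called 0 genes of these lists. Lama1, Lamb1, Lamc1 and Sparc are also among the endoderm markers, and Fbn1, Lum, Dcn and Postn among those of fibroblasts.

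Of the other lists of cell type markers, 9 of 11 tested trophoblast genes were higher in LIF in WT and 1 in KI, and 5 were lower in KI LIF than WT LIF. Their sum in the MNase libraries was 582 to 803 CPM in WT LIF and 335 to 352 in KI LIF. Of 7 neuroectoderm genes, 3 were higher in LIF in each genotype, of 3 endothelial genes 1 was higher in each genotype and 1 lower in WT, and the 1 tested mesoderm gene was not called for medium. The interaction called 1 gene of these lists, the trophoblast gene Rhox9, at -3.09 (SE 0.54). Of the 8 pluripotency markers, 2 were lower in LIF in WT and 5 in KI with 0 higher, 3 were lower and 0 higher in KI LIF than WT LIF, and 1 was higher and 1 lower in KI LIF/2i. The part of such cells in the collagen values was not tested.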

How the data were processed

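Ribo-Seq reads were counted per gene by the authors, and the deposited table holds whole-number counts for 22416 genes in 20 libraries. The submitters' processing notes name cutadapt 3.4, Bowtie 1.3.0 and UMI-tools 1.0.1, and per the labels' protocols the linkers carried unique molecular identifiers, and a genome build was not given in the sources used here. Samples were grouped by genotype, medium and nuclease from their labels, and every column matched 1 title. The 12 MNase libraries were fitted with edgeR 4.0.16 (filterByExpr, TMM, quasi-likelihood test) in R 4.3.3, with limma 3.58.1 loaded, on 1 model of 4 groups without a replicate block, and p-values were adjusted over all genes tested. The RNase I libraries were fitted alone in the same way, and nucleases were compared over 16 libraries. DESeq2 1.42.0, other scalings and filters, thinning, a replicate block, both nucleases together and leaving out single libraries were alternatives. The edgeR fit of the 12 MNase libraries was checked on simulated counts with a fixed seed, for KI against WT in LIF/2i only. The simulation gave all genes the same dispersion and had no outlying library, and the other tests were not checked in this way. By the naming rule, collagens called in a genotype, medium or interaction test of the MNase libraries, or averaging at least 5 CPM over those 12 libraries, were given by library; of each pathway list at most 4 called genes per comparison, by smallest p, could be named, and a gene named for 1 genotype's medium response was given in both where called. The members, gene lists and marker lists were chosen with earlier results of these data known. Same-numbered KI libraries deviated together between media (r = 0.563, 0.315 and 0.393), which meets the criterion for pairing, although numbers 2 and 3 correlated as much across numbers (0.404 and 0.367); the tests reported have no block, and the blocked counts stand with the alternatives. In the other comparisons the correlations were -0.099 to 0.118. Promoter windows came from RefSeq for GRCm38.p6 and were used for sequence only. Counting intervals and floors cover counting error only.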

Additional observations from a re-analysis of the deposited data

How the results depend on the processing

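Under the alternatives run, 0 called collagens reversed direction. With all libraries thinned to the smallest total, 2 collagens were called in place of 5 for KI against WT in LIF/2i. In LIF 2 were called in place of 6, for LIF against LIF/2i in KI 6 in place of 12, and between the nucleases 0 in place of 2. Of the 5 in LIF/2i, only Col6a3 kept its call. Some genes called with all counts, such as Col3a1 and Col14a1, did not pass the filter after thinning. The RNase I libraries alone called 0, 1 and 2 collagens in the first 3 of these comparisons, and 13 in place of 10 for LIF against LIF/2i in WT. Fitting both nucleases together called 20 in place of 10 for LIF against LIF/2i in WT, and 1 (Col6a2) in place of 0 in the interaction. That fit has a term for nuclease and none for replicate. It thus counts the MNase and RNase I libraries of 1 replicate number as separate replicates, which they may not be. Its counts may be too high for that reason. Without KI replicate 1 in both media, 9 were called for KI against WT in LIF/2i. Without WT LIF replicate 2 and WT LIF/2i replicate 3 together, a setting chosen after seeing the data, 1 was called there. Without a filter beyond 1 count, 1 was called between the nucleases. Leaving out 1 library gave 1 to 9 calls for KI against WT in LIF/2i, 1 to 7 in LIF, 5 to 14 for LIF against LIF/2i in KI, and 1 to 4 between the nucleases. With the replicate number as a block, 4, 7, 10 and 13 collagens were called for KI against WT in LIF/2i and LIF and for LIF against LIF/2i in WT and KI, 0 in the interaction, and 5 in place of 2 between the nucleases; Col4a2 in LIF/2i lost its call (adjusted p = 0.0696). The cause of these changes was not tested.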
